A study of Mus musculus with 11 samples.

Results

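The panel described here holds 10 genes, early markers of endoderm and mesoderm: *Gata4*, *Gata6*, *Sox17*, *Sox7*, *Dab2* and *Pdgfra* for the primitive endoderm, *Foxa2* for the definitive endoderm, and *T*, *Eomes* and *Mixl1* for the primitive streak and early mesoderm. The panel was set by name with earlier results of these data known, and its rule uses no measured value. All 10 genes were found among the 54838 Ensembl genes of the count tables. RNA-seq was made from E14 cells, a line of mouse embryonic stem cells (ESCs), kept on gelatin in a serum replacement medium with LIF, which holds ESCs in self-renewal. All cells were transfected for 36 h, with a scrambled control siRNA (3 libraries) or with 1 of 2 siRNAs against CMTR1, siRNA 1 and siRNA 2 (4 libraries each). CMTR1 is the enzyme that methylates the ribose of the first transcribed nucleotide beside the mRNA cap. The comparisons ask whether siRNA against CMTR1 moved, within this time, the RNA of lineage genes that ESCs express little. Separate siRNAs against the same mRNA stand as checks on each other, and both were compared with the same 3 control libraries.

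The primitive endoderm is the epithelium that forms beside the pluripotent epiblast in the early embryo, and FGF signals push cells of the inner cell mass towards it. GATA6 acts early in that choice, and GATA4, SOX17 and SOX7 follow it. The definitive endoderm and the mesoderm arise later, at the primitive streak, where WNT, BMP and NODAL signals switch on *T*, *Eomes* and *Mixl1*. ESC cultures usually hold few cells that have begun either path, so these RNAs are scarce in them.

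The libraries held 6738478 to 8382318 counted reads, so 1 read was worth 0.119 to 0.148 CPM, the reads of a gene scaled to the library's total. The 9 ESC markers examined all had reads in every library, with a summed level of 1973 to 2082 CPM in control, 1687 to 1862 after siRNA 1 and 1771 to 1848 after siRNA 2. At an adjusted p of 0.05 in edgeR's quasi-likelihood test, 6 of these markers fell after siRNA 1 and 4 fell after siRNA 2, where 1.97% and 3.55% of all tested genes fell. *Cmtr1* itself measured 21.3, 21.7 and 17.9 CPM in the control libraries, 21.1, 21.3, 16.2 and 18.0 after siRNA 1, and 15.6, 16.8, 16.4 and 19.5 after siRNA 2. Its log2 fold change was -0.09 after siRNA 1 (SE 0.11, adjusted p = 0.743) and -0.25 after siRNA 2 (SE 0.11, adjusted p = 0.144), so the libraries do not separate by the RNA of the targeted gene. Only 24.2% of the exonic bases of *Cmtr1* lie in no other annotated gene. CMTR1 protein was not measured in these data.

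None of the tested markers passed the threshold with either siRNA. A gene was tested if it exceeded 1 CPM in at least 4 libraries, and called at a false discovery rate (the adjusted p) of 0.05 in edgeR's quasi-likelihood test over all 16073 tested genes. This filter kept 8 of the 10 markers; *Foxa2* exceeded 1 CPM in 1 library and *Mixl1* in 0. After siRNA 1, 0 of 8 were called, where 4.67% of all tested genes were, and 0 had an unadjusted p under 0.05, where 16.8% did. After siRNA 2, 0 of 8 were called against 9.72% of all genes, and 1, *T*, had an unadjusted p under 0.05 (23.2% of all genes). For siRNA 2 against siRNA 1 the counts were 0 of 8 against 7.44%, with 1, *Sox17*, under an unadjusted 0.05 (21.1% of all genes). The libraries of 1 marker did not overlap between siRNA 2 and control (19.4% of all genes), and 0 were separate after siRNA 1 (15.5%), between the siRNAs (11.8%) or for both siRNAs together (6.23%). With both siRNAs averaged and set against control, 0 of 8 were called against 6.91% of all genes, and 0 were under an unadjusted 0.05 (19.7% of all genes). DESeq2 and edgeR's exactTest, where each was run, also called 0 of the 8. DESeq2 gave no adjusted p for 5 of them after siRNA 1 and for 3 after siRNA 2, and its unadjusted p was under 0.05 for 0. The median log2 fold change of the 8 was -0.02 after siRNA 1 and -0.15 after siRNA 2, where that of all tested genes was 0.02 and 0.03. The balance of directions over all genes depends on the scaling: after siRNA 2, 991 genes were called higher and 571 lower with libraries scaled by their totals, 728 and 734 with TMM factors, and 409 and 549 in DESeq2. After siRNA 1 these splits were 435 and 316, 346 and 400, and 195 and 326. For the mean of both siRNAs they were 673 and 437, 509 and 573, and 301 and 449.

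**Figure D1:**
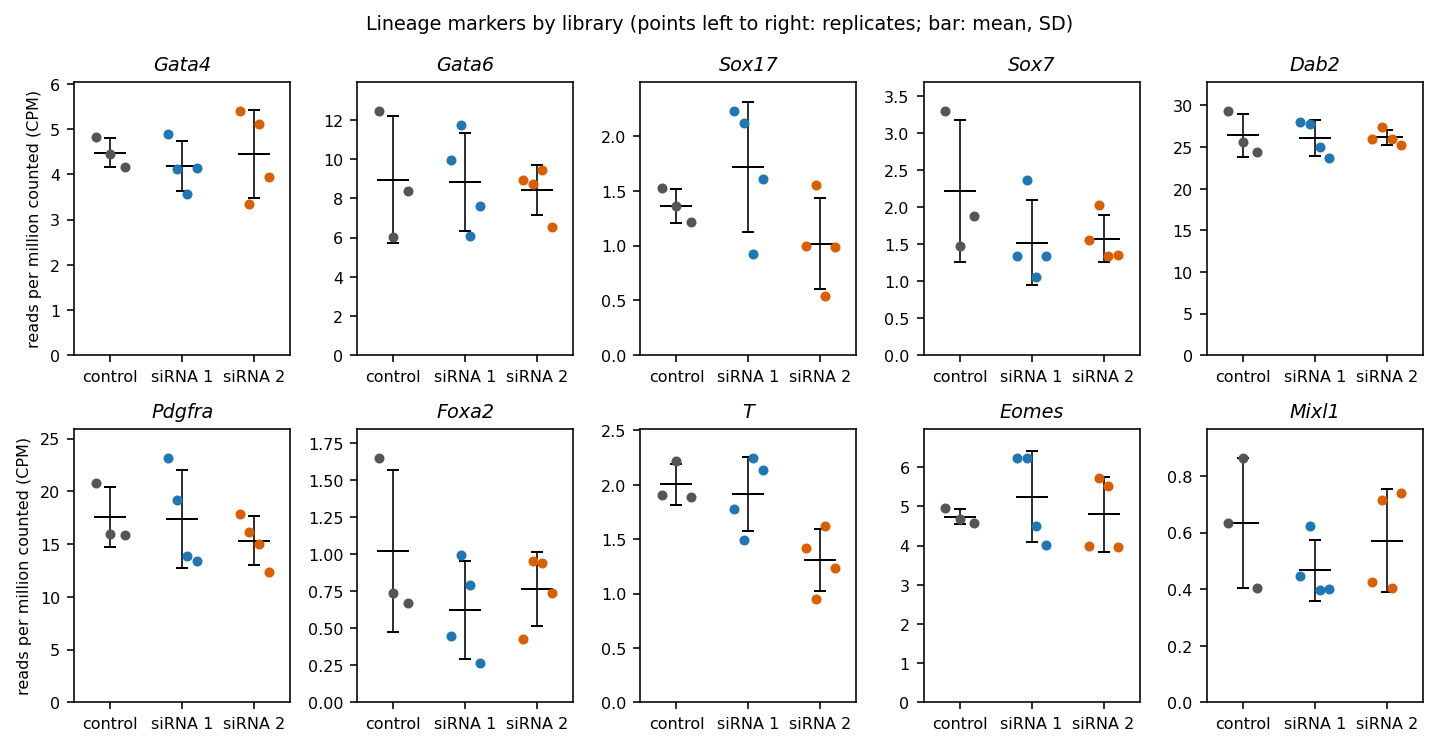
CPM of the 10 markers, 1 panel each with its own axis from 0; points are libraries and black bars the mean and SD of 3 control, 4 siRNA 1 and 4 siRNA 2 libraries. The groups overlap in 9 panels, while the siRNA 2 libraries of *T* (0.954 to 1.62 CPM) all lie under the control libraries (1.88 to 2.22 CPM).

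To compare genes with each other, the CPM were divided by exonic length. In control, *Dab2* stood highest at 3.60 ± 0.35 CPM per kb (SD, n = 3), above the level of 43.6% of the tested genes. *Pdgfra* (1.75 ± 0.28), *Gata6* (1.37 ± 0.50), *Gata4* (1.15 ± 0.08) and *Eomes* (1.14 ± 0.05) came next, in CPM per kb. *T* (0.87 ± 0.08), *Sox7* (0.67 ± 0.29), *Foxa2* (0.43 ± 0.23), *Sox17* (0.29 ± 0.03) and *Mixl1* (0.28 ± 0.10) were the lowest, *Mixl1* above only 3.96% of the tested genes. Along this order the control libraries separated at 2 steps, between *Dab2* and *Pdgfra* and between *Eomes* and *T*. All other neighbours overlapped in control. Every marker had at least 2 reads in every library, so none was absent, and the totals over the 11 libraries ran from 47 reads for *Mixl1* to 2209 for *Dab2*. In a bulk sample, fewer cells of a type and less RNA per cell cannot be told apart.

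**Figure D2:**
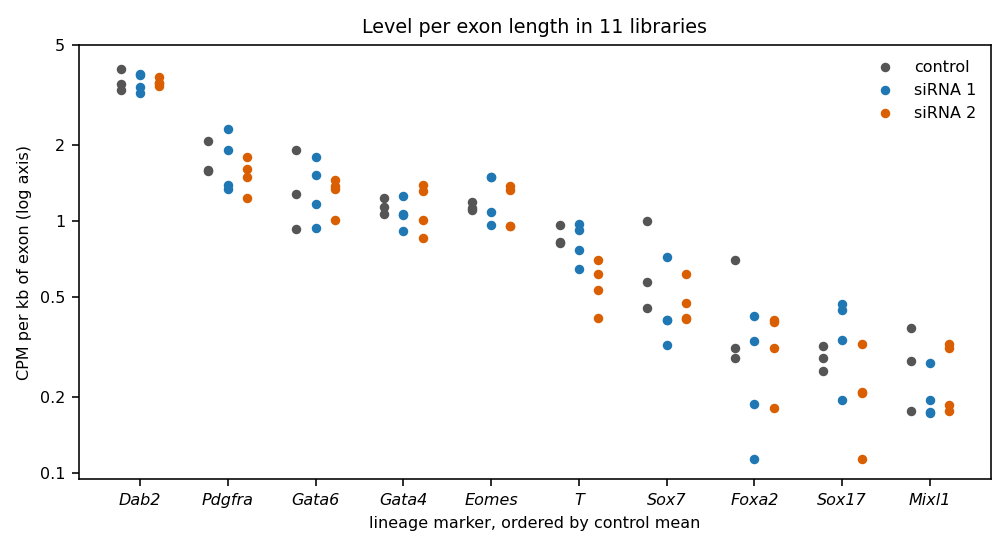
Level of each marker in CPM per kilobase of exon, on a log axis, with 1 point per library in the colour of its group; markers are ordered by their control mean. *Dab2* lies between 3.22 and 3.99 in all 11 libraries, above every value of the other 9 markers.

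*Gata6* and *Gata4* encode zinc finger transcription factors of the primitive endoderm. *Gata6* (chr18:11052064-11085635, plus strand, GRCm38) measured 12.4, 6.04 and 8.34 CPM in control, 9.94, 11.7, 6.08 and 7.62 after siRNA 1, and 8.95, 8.71, 9.44 and 6.54 after siRNA 2. The 3 groups overlapped, and both siRNA groups lay inside the range of the controls, which held the largest and the smallest value. Its log2 fold change was -0.01 after siRNA 1 (SE 0.18, 95% interval -0.38 to 0.36, adjusted p = 0.982) and -0.09 after siRNA 2 (SE 0.18, -0.46 to 0.28, adjusted p = 0.822). Without control replicate 1, the highest library, the values became 0.31 (adjusted p = 0.490) and 0.23 (adjusted p = 0.556). *Gata4* (chr14:63198922-63271692, minus strand) measured 4.82, 4.44 and 4.17 CPM in control, 4.90, 4.11, 3.57 and 4.14 after siRNA 1, and 5.40, 3.34, 5.12 and 3.95 after siRNA 2. It overlapped in all 3 groups, with log2 fold changes of -0.11 (-0.51 to 0.29, adjusted p = 0.848) and -0.03 (-0.42 to 0.37, adjusted p = 0.957).

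*Sox17* and *Sox7* encode related HMG-box factors; *Sox17* also serves the definitive endoderm. *Sox17* (chr1:4490931-4497354, minus strand) had 12, 11 and 9 reads in control, 15, 17, 7 and 12 after siRNA 1, and 7, 13, 4 and 8 after siRNA 2. Its mean was 1.36 ± 0.16 CPM (SD, n = 3) in control, 1.72 ± 0.59 (n = 4) after siRNA 1 and 1.02 ± 0.41 (n = 4) after siRNA 2, so the siRNA means lay on opposite sides of control. Against control its log2 fold change was 0.32 (-0.35 to 0.99, adjusted p = 0.693) after siRNA 1 and -0.40 (-1.14 to 0.34, adjusted p = 0.555) after siRNA 2. Set directly against siRNA 1, siRNA 2 gave -0.72 (SE 0.33, -1.38 to -0.06, adjusted p = 0.188; 2-sided exact permutation p = 0.171), and the libraries overlapped. The exons of *Sox17* share 804 bases with the opposite-strand transcript Gm37587, which had 0 to 3 reads per library. *Eomes* shares 118 bases with Gm33460 (1 to 8 reads per library) and *Gata6* shares 93 with 1010001N08Rik (1 to 6), both on the opposite strand.

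*Sox7* (chr14:63943673-63950732, plus strand) had 26, 12 and 14 reads in control, 9, 19, 8 and 10 after siRNA 1, and 11, 17, 10 and 11 after siRNA 2. Control replicate 1 stood above all other libraries, and the remaining libraries of the 3 groups overlapped. The log2 fold change was -0.52 after siRNA 1 (-1.15 to 0.10, adjusted p = 0.410) and -0.48 after siRNA 2 (-1.10 to 0.13, adjusted p = 0.353). Without control replicate 1 these values were -0.12 and -0.08. At these counts a change to below 50% of the control level lies inside both intervals of the full fit.

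*Dab2* encodes an endocytic adaptor that the primitive endoderm needs to form an ordered epithelium, and it binds the receptor LRP2, the partner of cubilin. It (chr15:6299788-6440712, plus strand) had the most reads of the panel and the narrowest intervals. Its level was 29.3, 25.7 and 24.4 CPM in control, 28.0, 27.8, 25.0 and 23.7 after siRNA 1, and 26.0, 27.4, 26.0 and 25.3 after siRNA 2. The 3 groups overlapped throughout. The log2 fold change was -0.02 after siRNA 1 (SE 0.09, -0.20 to 0.16, adjusted p = 0.944) and -0.01 after siRNA 2 (SE 0.09, -0.19 to 0.16, adjusted p = 0.948). As percentages of the control level, the 95% intervals run from a change of -12.8% to 11.5% after siRNA 1 and from -12.4% to 11.8% after siRNA 2. Without control replicate 1 the log2 values turned to 0.06 and 0.07.

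Since *Dab2* is the most abundant marker, and GATA factors bind the letters AGATAA and TGATAA, its RefSeq start windows are shown, with 250 bases before and 50 after each start on the gene's strand (GRCm38.p6). Capitals mark AGATAA or TGATAA on either strand; TTATCT is AGATAA read on the other strand. The window of *T* is shown beside them because *T* gave the lowest unadjusted p against control.
Dab2, chr15:6299539-6299838, plus strand: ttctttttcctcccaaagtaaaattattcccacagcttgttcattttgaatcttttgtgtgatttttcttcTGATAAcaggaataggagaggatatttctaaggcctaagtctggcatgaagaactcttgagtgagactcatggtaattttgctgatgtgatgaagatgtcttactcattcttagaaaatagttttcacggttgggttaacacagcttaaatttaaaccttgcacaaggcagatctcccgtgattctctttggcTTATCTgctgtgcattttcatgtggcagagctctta
Dab2, chr15:6386498-6386797, plus strand: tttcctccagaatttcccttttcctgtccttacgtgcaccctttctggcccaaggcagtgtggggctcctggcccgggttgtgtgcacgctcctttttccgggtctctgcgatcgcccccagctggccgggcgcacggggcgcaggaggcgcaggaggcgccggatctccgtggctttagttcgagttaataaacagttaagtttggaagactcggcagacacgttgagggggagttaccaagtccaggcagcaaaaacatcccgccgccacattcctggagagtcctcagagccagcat
T, chr17:8434173-8434472, plus strand: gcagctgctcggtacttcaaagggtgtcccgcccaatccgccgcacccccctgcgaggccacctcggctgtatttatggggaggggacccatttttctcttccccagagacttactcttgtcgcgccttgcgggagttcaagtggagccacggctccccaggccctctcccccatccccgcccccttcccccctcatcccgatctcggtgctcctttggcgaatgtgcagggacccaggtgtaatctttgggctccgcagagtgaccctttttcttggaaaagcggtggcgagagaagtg
The first *Dab2* window holds 2 matches, TGATAA 179 bases before the start and TTATCT 14 bases after it, with 2 CpG dinucleotides. The second window holds 0 matches and 19 CpG, and that of *T* 0 matches and 17 CpG, where the median of all windows is 7. Of all 32851 windows, 18.6% hold at least 1 match and 3.26% hold 2 or more. Windows were examined for 5 markers only (*Dab2*, *Foxa2*, *Pdgfra*, *Eomes* and *T*). Of these 8 windows 2 held a match, the other 1 being a start of *Foxa2*. No window of the remaining markers, the GATA genes included, was examined, so 2 of 8 is not a count for the whole panel. A match is a run of letters and does not show binding.

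*Pdgfra* encodes the receptor for PDGF ligands and is among the early surface marks of primitive endoderm. It (chr5:75152292-75198215, plus strand) measured 20.8, 15.9 and 15.9 CPM in control, 23.2, 19.2, 13.9 and 13.4 after siRNA 1, and 17.9, 16.1, 15.0 and 12.3 after siRNA 2. The siRNA 1 libraries lay on both sides of the controls, with replicates 1 and 2 high and 3 and 4 low. The log2 fold change was -0.02 after siRNA 1 (SE 0.14, -0.29 to 0.25, adjusted p = 0.962) and -0.20 after siRNA 2 (SE 0.14, -0.48 to 0.08, adjusted p = 0.399). Without control replicate 1 these became 0.12 and -0.06.

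*Foxa2*, a forkhead factor of the definitive endoderm and the node, was at the limit of what this depth can show. It (chr2:148042877-148046969, minus strand) had 13, 6 and 5 reads in control, 3, 8, 6 and 2 after siRNA 1, and 3, 8, 7 and 6 after siRNA 2. The control library with 13 reads was the highest of the 11, and the groups overlapped. The ratio of the pooled CPM to control was 0.622 after siRNA 1 (exact binomial 95% interval 0.322 to 1.18) and 0.757 after siRNA 2 (0.412 to 1.39). These intervals cover counting error only. In a fit with no expression filter its log2 fold change was -0.67 (adjusted p = 0.695) and -0.40 (adjusted p = 0.682), and without control replicate 1 it was -0.15 and 0.13.

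*T*, or brachyury, is a T-box factor of the primitive streak and a target of WNT signals. It (chr17:8434423-8442496, plus strand) had 15, 18 and 14 reads in control, 12, 12, 17 and 16 after siRNA 1, and 10, 8, 12 and 10 after siRNA 2. In CPM these are 1.90, 2.22 and 1.88 in control, 1.78, 1.50, 2.25 and 2.14 after siRNA 1, and 1.42, 0.954, 1.62 and 1.23 after siRNA 2. All 4 siRNA 2 libraries lay under all 3 control libraries, while the siRNA 1 libraries overlapped both groups. The log2 fold change after siRNA 2 was -0.63 (SE 0.30, 95% interval -1.23 to -0.03), which did not pass the threshold (adjusted p = 0.189; unadjusted 0.040). The 2-sided exact permutation test of the mean CPM gave p = 0.0571, where 0.0286 is the smallest that 3 against 4 libraries allow. Of all tested genes, 6.99% had siRNA 2 libraries that all lay under the controls. After siRNA 1 the log2 fold change of *T* was -0.07 (-0.62 to 0.48, adjusted p = 0.939), and siRNA 2 against siRNA 1 gave -0.56 (-1.13 to 0.01, adjusted p = 0.253). Left-out libraries moved the siRNA 2 value between -0.75 and -0.50. The adjusted p lay between 0.142 and 0.401 over those of the 18 alternatives that gave one, and DESeq2 gave none for 3 of the 8 tested markers.

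Some markers of other cell types, unlike *T*, passed the threshold after siRNA 2. The summed level of 8 fibroblast markers was 25.9 to 32.3 CPM in control, 29.1 to 32.8 after siRNA 1 and 37.6 to 42.8 after siRNA 2. That of 8 genes of the two-cell-like state, a rare state of ESC cultures, was 20.8 to 23.6, 18.4 to 22.9 and 32.1 to 38.1 CPM. Of the 6 tested genes of each list, 4 two-cell-like genes rose after siRNA 2, and 2 fibroblast genes rose and 1 fell; after siRNA 1, 0 of either list were called. Of all tested genes, 6.17% rose and 3.55% fell after siRNA 2. The 8 trophoblast markers summed to 14.3 to 15.9, 13.1 to 15.6 and 11.9 to 14.7 CPM with 0 called and *Tpbpa* at 0 in every library. The 8 neural markers summed to 163 to 164, 177 to 196 and 175 to 208 CPM, with 1 of 5 tested called higher after siRNA 1, where 2.71% of all genes were, and 2 after siRNA 2. The part of these cell states in the level of *T* was not tested.

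*Eomes* is a T-box factor of the streak and of early endoderm. It (chr9:118478212-118486132, plus strand) measured 4.95, 4.69 and 4.58 CPM in control, 6.23, 6.23, 4.49 and 4.01 after siRNA 1, and 3.98, 5.73, 5.53 and 3.95 after siRNA 2. The controls were close together and lay inside the range of both siRNA groups. Its log2 fold change was 0.14 (SE 0.19, -0.25 to 0.53, adjusted p = 0.779) after siRNA 1 and 0.02 (SE 0.19, -0.37 to 0.41, adjusted p = 0.965) after siRNA 2, and the latter sign turned under TMM factors and DESeq2. *Mixl1*, a homeobox gene of the streak (chr1:180693043-180697034, minus strand), had 5, 7 and 3 reads in control, 3, 5, 3 and 3 after siRNA 1, and 3, 6, 3 and 6 after siRNA 2. Its pooled ratio to control was 0.733 (0.328 to 1.63) and 0.908 (0.432 to 1.94), so a fall to below 50% and a rise of 50% both lie inside these intervals. They cover counting error only.

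**Figure D3:**
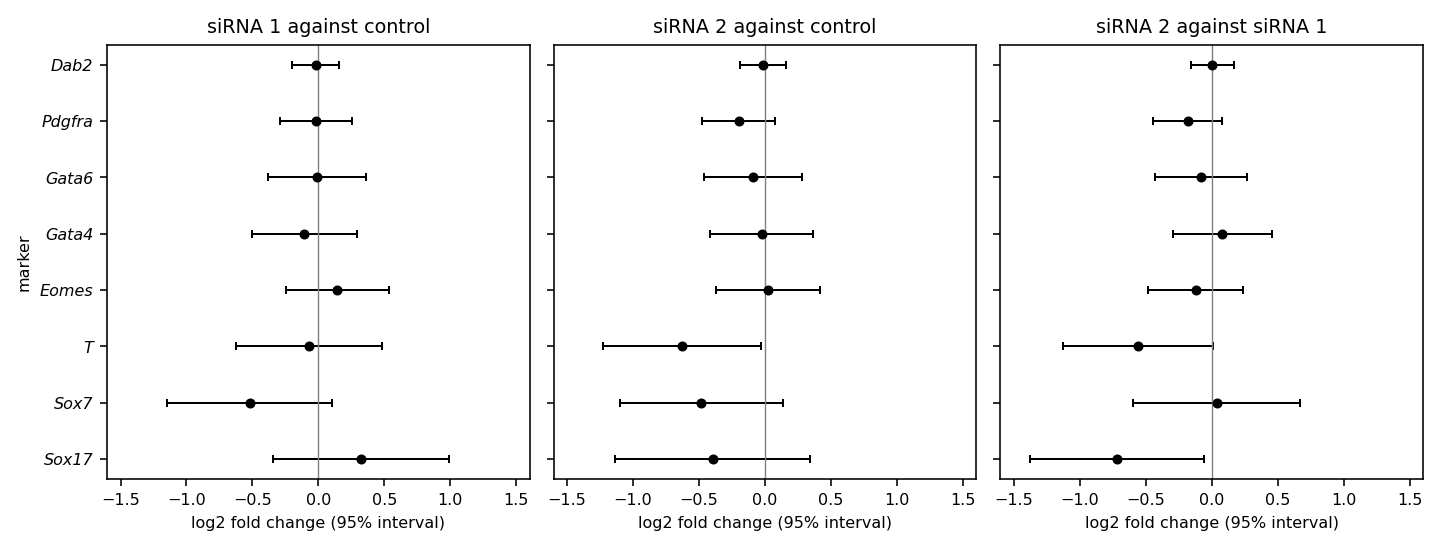
Log2 fold change of the 8 tested markers with the 95% interval of edgeR's quasi-likelihood fit, for siRNA 1 against control, siRNA 2 against control and siRNA 2 against siRNA 1. Intervals are widest in the bottom row (*Sox17*) and narrowest in the top row (*Dab2*), and those of *T* after siRNA 2 and of *Sox17* between the siRNAs are the ones that leave out 0, before adjustment for the 16073 genes.

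Within the groups, some endoderm genes varied far more than their reads account for. For each gene a chi-square of its reads against the group's share of depth was divided by its 8 degrees of freedom, so that counting error alone gives about 1. The median over all tested genes was 1.28. *Pdgfra* reached 5.28 and *Gata6* 4.95, above 96.8% and 96.3% of the tested genes. *Sox7* gave 1.65, *Eomes* 1.30, *Sox17* 1.10, *Dab2* 1.07, *Gata4* 0.86 and *T* 0.40. This ratio grows with the number of reads, so it ranks abundant genes higher.

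The libraries that were high for 1 primitive endoderm gene tended to be high for others. Control replicate 1 stood highest of the 3 controls for 7 of the 8 tested markers and for 12 of 16 tested genes of a wider primitive endoderm list, where it did so for 35.8% of all tested genes. Over the 11 libraries the Pearson r of log2 CPM was 0.80 between *Dab2* and *Pdgfra*, 0.75 between *Gata6* and *Sox7*, 0.75 between *Gata6* and *Pdgfra*, and 0.74 between *Gata6* and *Dab2*. Taken as deviations from the group means, which removes the siRNA groups, these were 0.84, 0.85, 0.78 and 0.74. *Gata4* was less alike, with 0.43 to *Gata6* and 0.21 to *Dab2* on the same deviations. These are descriptions over 11 points whose values share library depth and culture.

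Within the groups, basement membrane genes of the endoderm and *Cubn* varied with *Pdgfra* and *Gata6*. On the deviations from group means, *Pdgfra* had an r of 0.92 with *Col4a1*, a collagen IV chain, 0.91 with *Lama1*, a laminin chain, and 0.92 with *Cubn*, the endocytic receptor cubilin. *Gata6* had 0.88, 0.90 and 0.91 with the same genes. The share of all tested genes with an r this high was not measured. Not all genes of the wider list followed. On these deviations *Plat*, *Hnf4a* and *Apoe* had an r of -0.09, -0.05 and -0.20 with *Pdgfra*. With *Gata6* they had -0.04, -0.13 and -0.06. *Lama1* measured 342, 255 and 299.9 CPM in control, 333, 319.5, 207 and 228 after siRNA 1, and 257, 253, 249 and 220 after siRNA 2. As for *Pdgfra*, control replicate 1 and siRNA 1 replicates 1 and 2 were the 3 highest libraries, and siRNA 1 replicates 3 and 4 were among the lowest. Over tested genes in general, siRNA 1 replicates 1 and 3 were also the least alike pair within a group (chi-square per degree of freedom 2.94). Whether the split is particular to endoderm genes was not tested.

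**Figure D4:**
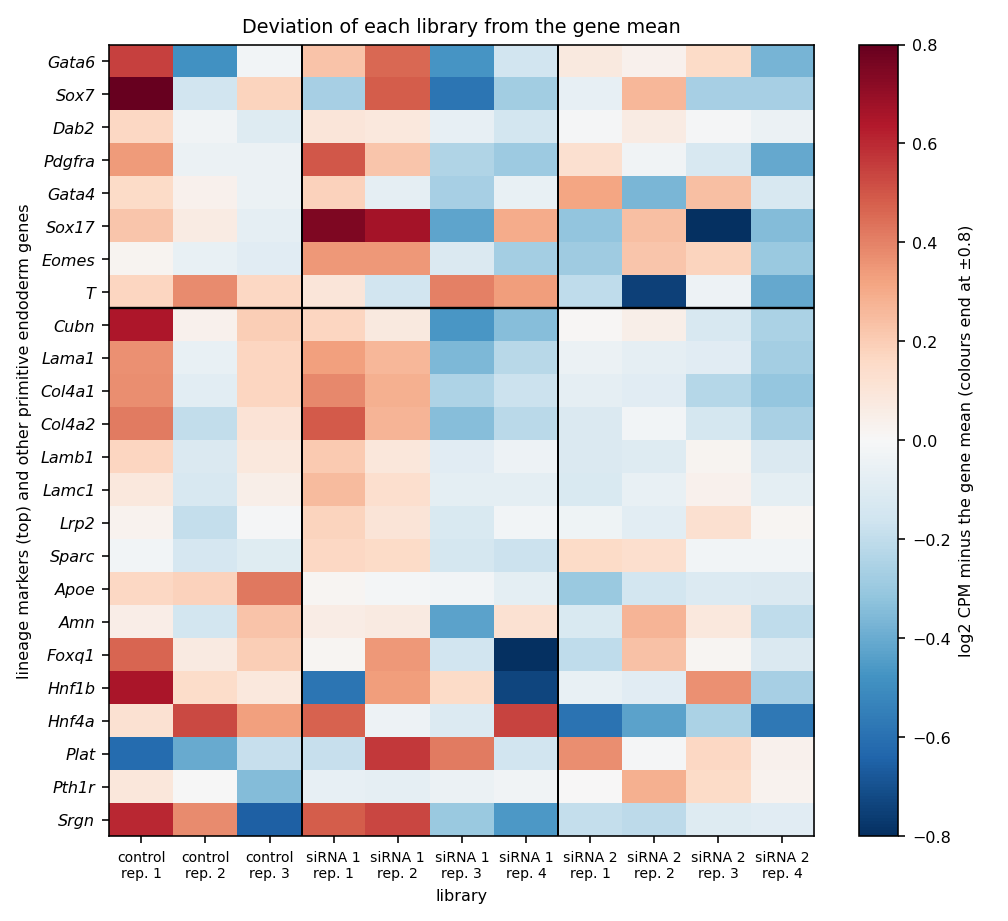
Log2 CPM of each library minus the mean of the gene over 11 libraries, for the 8 tested markers (above the line) and 16 tested genes of the wider primitive endoderm list; red is higher and blue lower. Control replicate 1 and siRNA 1 replicates 1 and 2 are red for *Gata6*, *Dab2*, *Pdgfra*, *Lama1*, *Col4a1* and *Col4a2*, and siRNA 1 replicates 3 and 4 are blue for them. *Plat* differs, being blue in control replicate 1 and red in siRNA 1 replicate 3.

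For each tested marker the 3 genes with the most similar profile over the 11 libraries were also named. Most are not lineage genes. *Pdgfra* was nearest to Scand1 (r = 0.94), Gm38377 (0.91) and *Col4a2* (0.90), and *Sox7* to Spin4 (0.90), Pheta1 (0.87) and *Cubn* (0.85). *Gata6* was nearest to Taf1c (0.91), Kis2 (0.90) and P4ha1 (0.89), and *Dab2* to Mamdc4 (0.89), March11 (0.87) and Nkain3 (0.87). For *Gata4* they were Mapkapk5 (0.88), C1rl (0.87) and Mir22hg (0.87), and for *Sox17* Mobp (0.92), Fignl2 (0.92) and Tbc1d9b (0.91). *T* was nearest to Gm13261 (0.95), Ppox (0.94) and Vps37d (0.94), and *Eomes* to Ndufs5 (0.92), Frem1 (0.90) and Plpbp (0.89). With 16073 genes and 11 libraries, the highest r is large for any gene.

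In the wider primitive endoderm list, 2 of 16 tested genes (of 23) fell after siRNA 1 and 4 fell after siRNA 2, where 1.97% and 3.55% of all tested genes fell, and 0 rose, where 2.71% and 6.17% did. With both siRNAs averaged and set against control, 2 of the 16 fell and 1 rose, where 6.91% of all tested genes were called. The gene that rose was called with neither siRNA alone. *Apoe*, an apolipoprotein of the yolk sac endoderm, went from 133 ± 13.3 CPM (SD, n = 3) to 109 ± 2.94 (n = 4) and 98.5 ± 5.91 (n = 4), with log2 fold changes of -0.29 (adjusted p = 0.00117) and -0.43 (adjusted p = 1.53e-06). *Cubn* went from 112 ± 25.5 to 83.4 ± 17.8 and 85.4 ± 8.03 CPM, with -0.43 (adjusted p = 0.00533) and -0.39 (adjusted p = 0.00691). After siRNA 2 alone, *Col4a1* was called at -0.34 (adjusted p = 0.0116) and *Lama1* at -0.29 (adjusted p = 0.0335), and for siRNA 1 their values were -0.08 and -0.14. The calls of *Cubn*, *Col4a1* and *Lama1* were lost without control replicate 1, the library that was also highest for *Gata6*, *Sox7* and *Dab2*. Without it *Cubn* was at -0.23 (adjusted p = 0.214) and -0.19 (adjusted p = 0.241), *Col4a1* at -0.22 (adjusted p = 0.172) and *Lama1* at -0.18 (adjusted p = 0.291). The call of *Lama1* was also lost without control replicate 3 (adjusted p = 0.105), siRNA 2 replicate 2 (adjusted p = 0.0517) or siRNA 2 replicate 4 (adjusted p = 0.108). DESeq2 called none of these 3 genes in the same comparisons, at log2 fold changes of -0.45 to -0.32 and an adjusted p of 0.191 to 0.324. The siRNA 1 call of *Apoe* was lost without control replicate 3 (-0.20, adjusted p = 0.058). The list's median log2 fold change was -0.08 and -0.26.

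Among 9 tested genes (of 17) of the wider definitive endoderm list, *Cxcr4*, a chemokine receptor, rose after siRNA 1 from 1.28 ± 0.17 to 2.88 ± 0.67 CPM (log2 fold change 1.15, SE 0.28, adjusted p = 0.00958) and measured 1.94 ± 0.24 CPM after siRNA 2 (0.59, adjusted p = 0.237). *Trh*, which encodes the precursor of thyrotropin-releasing hormone, fell after siRNA 2 (-0.26, adjusted p = 0.00473), and for siRNA 1 its value was -0.08. The call of *Cxcr4* was lost without control replicate 3 (1.04, adjusted p = 0.065) or siRNA 1 replicate 1 (0.99, adjusted p = 0.056). These are 1 of 9 genes in each comparison, where 4.67% and 9.72% of all tested genes were called. The medians of this list were 0.07 and 0.25.

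In the wider mesoderm list, 18 of 32 genes were tested and the same 2 were called with each siRNA, in comparisons that share their controls and in which 4.67% and 9.72% of all tested genes were called. *Bmp4*, a BMP ligand that induces streak genes, fell from 12.8 ± 0.96 CPM (SD, n = 3) to 7.92 ± 0.73 (n = 4) and 7.59 ± 1.79 (n = 4), by -0.68 (SE 0.14, adjusted p = 0.00161) and -0.75 (SE 0.14, adjusted p = 0.000318) in log2. *Cdx4*, a homeobox gene of the posterior streak, rose by 1.54 (adjusted p = 0.036) and 1.49 (adjusted p = 0.029) in log2 but had only 3, 6 and 1 reads in control and 7 to 11 in the siRNA libraries. In control *Cdx4* reached at most 0.740 CPM, so it passed the 1 CPM filter only through siRNA libraries, which favours a rise. Its calls were lost without control replicate 3, at 1.16 (adjusted p = 0.217) and 1.10 (adjusted p = 0.186), and under several other left-out libraries, while those of *Bmp4* held in all 18 alternatives. The medians of the list were 0.14 and -0.01.

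Of 24 signalling genes and partners of these lineages, all tested, 2 rose and 4 fell after siRNA 1, and 2 rose and 3 fell after siRNA 2. Of all tested genes, 2.71% rose and 1.97% fell after siRNA 1, and 6.17% and 3.55% after siRNA 2. *Fgf4*, the FGF ligand that ESCs make and that drives primitive endoderm, fell from 118 ± 3.51 CPM (SD, n = 3) to 82.3 ± 6.62 (n = 4) and 87.7 ± 6.54 (n = 4), with log2 fold changes of -0.52 (SE 0.06, adjusted p = 3.17e-07) and -0.43 (SE 0.06, adjusted p = 2.9e-06). *Fgfr2*, an FGF receptor that the primitive endoderm uses, rose from 40.1 ± 0.99 to 52.7 ± 2.99 and 50.2 ± 3.57 CPM (0.39 and 0.32, adjusted p = 0.000274 and 0.00189). *Lef1*, a nuclear effector of WNT signals, rose from 107 ± 11.3 to 146 ± 11.4 and 139 ± 5.99 CPM (0.44 and 0.37, adjusted p = 4.42e-06 and 4.07e-05). For these 3 genes no siRNA library overlapped a control library, and the calls held in all 18 alternatives. Of the 24 genes, 13 did not overlap with control after siRNA 1 and 7 after siRNA 2, where 15.5% and 19.4% of all tested genes did not. The 3 genes were named for their calls in these same libraries, so their separation is no further support.

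The NODAL inhibitors and the PDGF ligand moved after siRNA 1. *Lefty2* fell from 23.1 ± 3.98 CPM (SD, n = 3) to 13.9 ± 1.91 (n = 4; log2 fold change -0.73, adjusted p = 4.53e-05) and *Lefty1* from 84.2 ± 3.67 to 65.7 ± 9.97 CPM (-0.36, adjusted p = 0.00422). *Pdgfa*, which encodes a ligand of the *Pdgfra* receptor, fell from 25.4 ± 2.26 to 19.6 ± 0.65 CPM (-0.38, adjusted p = 0.00963). After siRNA 2 their values were -0.17, -0.07 and -0.17 in log2, with adjusted p of 0.355, 0.675 and 0.236. After siRNA 2 the activin receptor *Acvr2b* (-0.21, adjusted p = 0.0305) and *Tcf7l1*, a WNT pathway repressor (-0.20, adjusted p = 0.0315), fell. The call of *Lefty1* was lost without siRNA 1 replicate 2 (-0.27, adjusted p = 0.052) and in DESeq2, and that of *Pdgfa* without control replicate 2 (-0.32, adjusted p = 0.111) or 3 (-0.35, adjusted p = 0.058). Those of *Acvr2b* and *Tcf7l1* were each lost without control replicate 3 (adjusted p = 0.153 and 0.241) and without several other libraries.

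**Figure D5:**
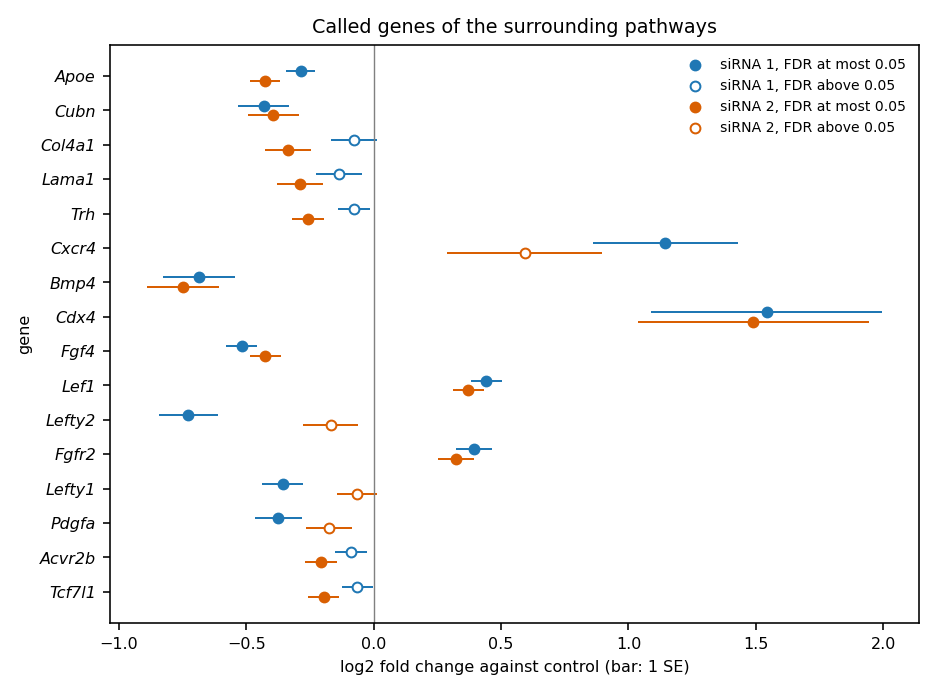
Log2 fold change against control with 1 SE, for the genes of the 4 wider lists called with at least 1 siRNA; filled points passed an adjusted p of 0.05 and open points did not. *Fgf4*, *Bmp4*, *Apoe* and *Cubn* lie under 0 and *Lef1*, *Fgfr2* and *Cdx4* above it with filled points for both siRNAs, which share 3 control libraries.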

How the data were processed

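The authors deposited counts: for each of 11 libraries, whole numbers of reads for 54838 Ensembl genes. Per the study's methods and notes, rRNA-depleted RNA went into directional libraries; Cutadapt trimmed the reads, STAR placed them on GRCm38, Picard removed duplicates and featureCounts counted them. Versions, annotation release and the strand setting of the counting are not given in the sources used here, so reads of a gene and an antisense partner may not be told apart. Summary lines, in 10 of 11 tables, were set aside. They put 39.3 to 44.3% of the listed reads in no gene. Their layout is that of HTSeq-count, while the study names featureCounts, so the tool that made the deposited counts is not certain.

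Symbols and exon lengths came from GENCODE M21 (54723 genes matched). Genes above 1 CPM in at least 4 libraries were tested with edgeR 4.0.16 (R 4.3.3), quasi-likelihood, 3 groups in one fit, libraries scaled by totals, Benjamini-Hochberg adjustment over 16073 genes. For genes below the filter, pooled read ratios have exact binomial intervals. On simulated counts for siRNA 1 against control (16073 genes), 85 of 100 genes changed 2-fold were recovered, and 54 of 100 given a smaller change. The changed genes were drawn from all tested genes, so recovery for genes as scarce as most of the markers was not measured. Alternatives were TMM factors, DESeq2 1.42.0, exactTest, no expression filter, filterByExpr, fits of 2 groups, a replicate block and each library left out.

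Markers and lists were chosen with earlier results of these data known. All 10 markers are named, and of each wider list the genes called with either siRNA, up to 8. Other genes are named for profile similarity, the 3 highest r per marker on log2 CPM with 1 read added. Lists of ESC and other cell markers are given as sums. The study's methods state 3 biological replicates for sequencing, while each siRNA group holds 4 libraries. The labels do not say which libraries came from separate cultures, so p-values measure the spread between these libraries, which may be technical.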

Additional observations from a re-analysis of the deposited data

Results flagged for a closer look

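Of 52 groups of 4 libraries checked for the named genes, 4 held a library far from the other 3 by Dixon's gap ratio, which chance gives in about 1 of 20 groups. They were *Trh* in siRNA 1 replicate 4 (74.2 CPM, the lowest; highest 84.4), *Bmp4* in siRNA 2 replicate 3 (10.2 CPM, the highest; lowest 6.39), *Pdgfa* in siRNA 2 replicate 1 (19.7 CPM, the lowest; highest 23.6) and *Acvr2b* in siRNA 2 replicate 2 (86.4 CPM, the highest; lowest 72.2). None of the 10 lineage markers was among them.

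Of the 16 called genes of the wider lists, 3 differed between the siRNAs when these were tested directly, and 0 of the 8 tested markers did. Of all tested genes, 7.44% did. The 16 were picked by calls with either siRNA in these same libraries, which favours such differences, so the shares are not comparable. *Lefty2* was higher after siRNA 2 by 0.56 in log2 (SE 0.11, edgeR adjusted p = 0.000649) and *Lefty1* by 0.29 (SE 0.08, adjusted p = 0.011). *Trh* had a log2 difference of -0.18 (SE 0.06, adjusted p = 0.0483).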

How the results depend on the processing

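Over all alternatives, 0 of the 8 tested markers were called in any comparison. The counts over all genes moved more: DESeq2 called 958 genes after siRNA 2 against 1562, and 738 for siRNA 2 against siRNA 1 against 1196. With 1 library left out, calls were 355 to 850 after siRNA 1 (751 with all), 807 to 1667 after siRNA 2, 724 to 1374 between siRNAs and 499 to 1215 for the mean (1110); control replicates 2 and 3, siRNA 1 replicates 1 and 2, and siRNA 2 replicate 1 moved a count by over 1.5 times. Several log2 fold changes near 0 turned their sign, none of them called, and the cause was not tested. Their ranges with 1 library left out follow, in log2. For siRNA 1 these were Gata6 -0.24 to 0.31, Dab2 -0.0741 to 0.0603, Pdgfra -0.18 to 0.12, T -0.16 to 0.0402. For siRNA 2 these were Gata4 -0.13 to 0.0956, Gata6 -0.32 to 0.23, Dab2 -0.0681 to 0.0664, Foxa2 -0.61 to 0.13, Eomes -0.0817 to 0.11, Mixl1 -0.36 to 0.15. For siRNA 2 against siRNA 1 these were Gata4 -0.0195 to 0.20, Gata6 -0.22 to 0.10, Sox7 -0.12 to 0.35, Dab2 -0.0385 to 0.0398. For the mean of both these were Gata6 -0.28 to 0.27, Sox17 -0.18 to 0.0656, Dab2 -0.0711 to 0.0633, Pdgfra -0.19 to 0.032. *Eomes* after siRNA 2 was at -0.00294 with TMM factors and -0.00872 in DESeq2. The exactTest and the fits of 2 groups give no contrast for the mean of both siRNAs.

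Over all tested genes, replicate numbers showed no pairing: deviations from group means of same-numbered libraries had a mean r of 0.009 (10 pairs, -0.05 to 0.06), against -0.003 for 30 other pairs. An r over all genes cannot exclude a shared replicate effect on single genes. Replicate 1 was the highest library of every group for *Gata4* (4.82, 4.90 and 5.40 CPM) and *Pdgfra* (20.8, 23.2 and 17.9 CPM), and for none of the other tested markers. With the number as a block, 840, 1486, 1242 and 1144 genes were called in the 4 comparisons, and 0 markers. The block turned *Gata6* to 0.0854, *Dab2* to 0.0125 and *Pdgfra* to 0.0846 after siRNA 1, *Gata4* to 0.00765, *Gata6* to 0.00919 and *Dab2* to 0.0196 after siRNA 2, and *Gata6* to 0.0473 and *Dab2* to 0.0161 for the mean. Among the wider lists, it lost the calls of *Lama1* and *Acvr2b* after siRNA 2 and of *Cdx4* after siRNA 1. Depth limits *Foxa2*, *Mixl1*, *Sox17*, *Sox7* and *T* most, which had 47 to 147 reads each over the 11 libraries.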
